A study of Mus musculus with 16 samples.

Results

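Cholesterol handling was described through 30 genes: 18 enzymes of the synthesis pathway, 4 genes of the sterol-sensing machinery, 4 of intracellular transport and storage, and 4 of liver X receptor (LXR) signalling, efflux and lipoprotein-receptor turnover. The genes were taken as a list of symbols and matched by Ensembl identifier. All 30 of the 30 were found among the 55414 identifiers, and all 30 had a mean of at least 10 counts per library. RNA had been measured in 16 bulk libraries of leukaemic mouse cells, from a model of the pro-B acute lymphoblastic leukaemia seen in infants. All 16 libraries carried the Kmt2a-AFF1 fusion and overexpressed the microRNA miR-128a, so there was no library without either one. Leukaemia-propagating cells (LPC) were taken from 2 niches, the central nervous system (CNS) and the bone marrow (BM). They were sorted into 2 types, both lineage-negative and cKit-positive. LSK cells were also positive for Sca1 and for IL7R, and LK cells (LK/CLP in the labels) were negative for Sca1. Each of the 4 combinations of niche and LPC type held 4 libraries. The labels used here give neither the age of the mice nor how many mice stand behind a library, nor what drove the fusion or the microRNA. The p-values therefore measure the spread between libraries, or in some fits that of paired differences between libraries.

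Each sample description ends in a tissue letter, and what precedes it, called the stem here, is shared by 1 BM and 1 CNS library of the same LPC type. There were 8 stems, LSK 1 to 4 and LK 1 to 4. What a stem stands for is not stated in the labels. Libraries of 1 stem deviated together from their group means in 8 of 8 stems (correlation across genes from 0.112 to 0.339), so each niche comparison is given without and with the stem as a block. With the block, a niche p-value measures the spread of the CNS minus BM differences between stems. A level is a counts-per-million value (CPM) on the scaled library size, given over a group as mean ± SD. Differences are log2 values ± SE from edgeR's quasi-likelihood test, with Benjamini-Hochberg adjusted p over all 18878 genes tested.

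The libraries held between 19.2 and 29.2 M counts (M for mega). Counts in olfactory and vomeronasal receptor genes, used as a measure of background, ran from 302 to 1063 per M named counts. In 7 of 8 stems this background was above that of the BM library in its CNS partner. Of the markers that define pro-B cells, Pax5 stood at no more than 1.52 CPM, Ebf1 at 1.44, Cd79a at 2.13 and Vpreb1 at 0.408, whereas Rag1 ran from 213 to 341 CPM. Trbc2, of the T-cell receptor beta locus, ran from 94.5 to 130 CPM and Cd3e did not exceed 0.679 CPM. Pax5, Ebf1, Cd79a and Vpreb1 were thus near 0 in these libraries, against the label, and the cells are called here by their sort.

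Cells make cholesterol from acetyl-CoA through mevalonate, squalene and lanosterol. When the endoplasmic reticulum runs low in sterol, SCAP carries SREBP2, the product of Srebf2, to the Golgi, where it is cut to release a transcription factor for the pathway; INSIG proteins hold SCAP back when sterol is plentiful. Surplus cholesterol is esterified by SOAT1 and stored in lipid droplets, and oxysterols activate the LXR receptors, which switch on the exporters ABCA1 and ABCG1 and MYLIP, a ligase that sends lipoprotein receptors to degradation. In the brain, lipoproteins do not cross from the blood in quantity and cholesterol is made locally.

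Start regions are shown for 1 gene of the SREBP arm and 3 genes of the storage and LXR arm that have values below. They were taken from RefSeq (GRCm38.p6), as the 250 bases before the transcript start. Capitals mark matches to a sterol regulatory element, TCACNCCAC, to the CCAAT box, or to an LXR repeat, GGTNA and GGTCA separated by 5 bases, each searched on both strands. No CCAAT match overlapped a match to another motif in these regions.
Hmgcs1, chr13:119690101-119690350, plus strand: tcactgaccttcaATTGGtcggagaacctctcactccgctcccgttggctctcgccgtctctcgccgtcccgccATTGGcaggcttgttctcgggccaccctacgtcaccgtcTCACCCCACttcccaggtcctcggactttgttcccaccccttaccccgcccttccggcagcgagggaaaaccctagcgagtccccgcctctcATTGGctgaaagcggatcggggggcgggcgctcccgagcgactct
Soat1, chr1:156474329-156474578, minus strand: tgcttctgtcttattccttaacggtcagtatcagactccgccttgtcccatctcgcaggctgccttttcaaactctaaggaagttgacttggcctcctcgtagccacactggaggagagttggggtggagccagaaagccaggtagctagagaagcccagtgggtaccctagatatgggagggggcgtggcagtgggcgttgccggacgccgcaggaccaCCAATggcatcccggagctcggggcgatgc
Abca1, chr4:53159896-53160145, minus strand: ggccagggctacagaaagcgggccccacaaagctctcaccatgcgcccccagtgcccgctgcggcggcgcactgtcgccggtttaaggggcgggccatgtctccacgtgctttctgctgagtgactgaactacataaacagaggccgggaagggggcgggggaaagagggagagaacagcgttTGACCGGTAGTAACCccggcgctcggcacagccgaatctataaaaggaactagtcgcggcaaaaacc
Mylip, chr13:45389492-45389741, plus strand: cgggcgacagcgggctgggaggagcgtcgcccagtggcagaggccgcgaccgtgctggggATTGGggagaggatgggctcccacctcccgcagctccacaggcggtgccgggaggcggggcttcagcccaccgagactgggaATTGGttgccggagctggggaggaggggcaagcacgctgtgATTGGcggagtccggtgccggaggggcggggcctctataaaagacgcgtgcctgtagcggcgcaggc
Hmgcs1 encodes the first committed condensing enzyme of the mevalonate pathway, and its TCACCCCAC match began 137 bases before the start. The repeat in Abca1 began 67 bases before the start and read on the strand opposite to the one shown. Mylip held 3 CCAAT matches and Soat1 held 1. Promoters of 24 of the 30 genes were in the table, counted over 300 bases, the 250 above and 50 after the start. The sterol element was matched in 1 of these 24 genes, Hmgcs1, against 1.24% of all 32851 promoters. The LXR repeat was matched in 1, Abca1, against 0.207% of promoters. CCAAT was matched in 20 of the 24 genes, against 37.4% of promoters. The 24 genes had 30 promoters, and a gene was counted if any of its promoters matched. The percentages are per promoter, so for all 3 motifs the counts of genes are not in the same unit as them. A match is a string of letters and not a measured site, and no promoter of Abcg1 was used.

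The microRNA that all libraries overexpress is shown with its seed, bases 2 to 8, in capitals. RefSeq lists mature miR-128-3p at chr1:128202404-128202424 on the plus strand and at chr9:112118644-112118664 on the minus strand (GRCm38.p6), with 1 sequence.
miR-128-3p: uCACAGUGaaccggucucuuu
Its seed match, CACTGTG, was found in the 3′ untranslated region of 7 of the 30 genes (23.3%), against 17.9% of 21788 protein-coding genes in the GENCODE M21 transcripts. The genes with a match were Cyp51, Insig1, Stard4, Soat1, Npc2, Abca1 and Sc5d. The matches of Soat1, the gene with the smallest p between niches, and of Sc5d and Abca1, the extremes of the comparison of LPC types, are shown with 14 bases before and 1 after the seed match, which is in capitals.
Soat1: tatgtatatgactaCACTGTGg
Sc5d, first: tcagagtcacactgCACTGTGt
Sc5d, second: aacaagacactgatCACTGTGa
Abca1: gaggtcttcctttgCACTGTGt
Abcg1 and Mylip held no match. Since every library carries the microRNA, no comparison here bears on it.

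The regulator Srebf2 had the highest level of the 30 genes per length. It stood at 20.9 ± 1.55 CPM per kilobase of exon (SD, n = 16 libraries). Nr1h2, which encodes LXR-beta, the LXR that most tissues express, followed at 10.2 and the isomerase gene Idi1 at 8.48 CPM per kilobase. Abcg1 (5.96) and Hmgcs1 (5.93) came next and did not differ beyond their spreads of 1.75 and 0.666. Soat1 stood at 2.39 ± 0.767 CPM per kilobase. The late enzymes Hsd17b7 (0.690) and Tm7sf2 (0.497), the farnesyl diphosphate synthase gene Fdps (0.491) and Abca1 (0.112) were the lowest. The exporter Abcg1 therefore stood far above the exporter Abca1 in all groups, and Abca1 averaged 26.9 counts per library. Exon lengths were those of GENCODE M21, whereas the submitters' notes name GRCm39.

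**Figure D1:**
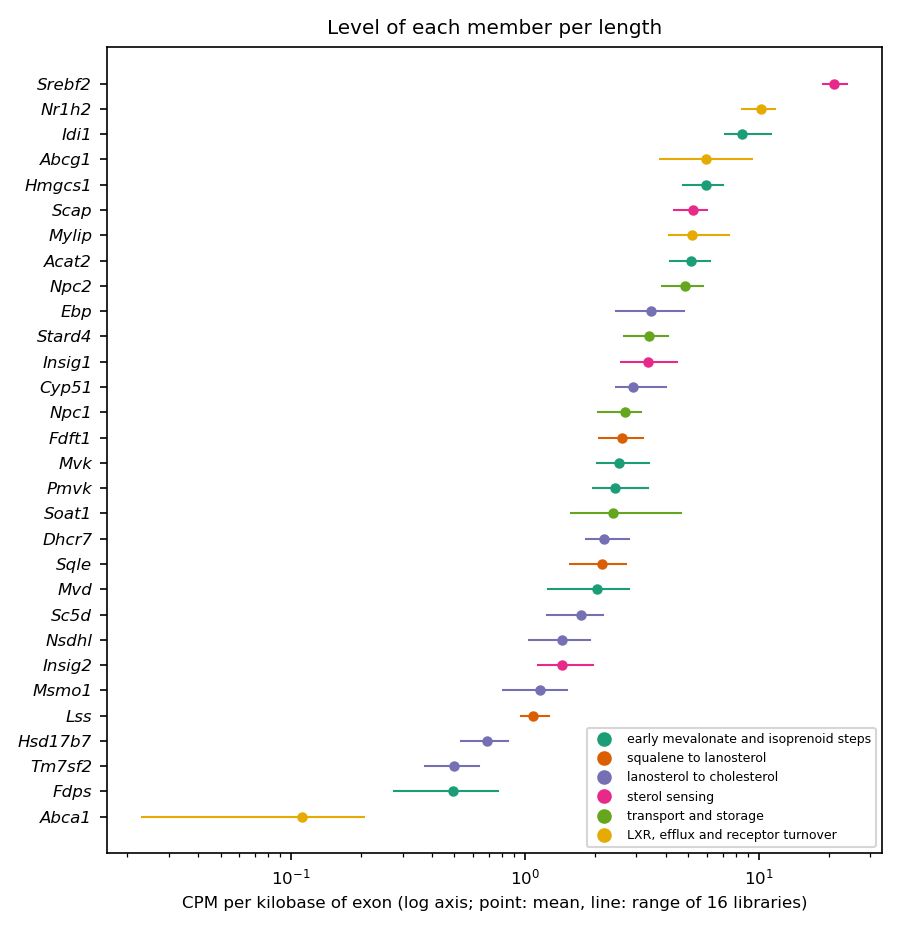
Level of each of the 30 genes in CPM per kilobase of exon on a log axis, with the mean of 16 libraries as a point and their range as a line, coloured by role. Srebf2 leads at 20.9 and Abca1 closes at 0.112 CPM per kilobase.

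The first question the design poses is whether LPC in the CNS differ from LPC in BM. With stems as a block, Soat1, which esterifies cholesterol for storage, rose 1.54-fold and Abcg1, which exports cholesterol to lipoprotein particles, rose 1.41-fold. None of the 18 synthesis enzymes and none of the 4 sensing genes passed the test. These were 2 of the 30 genes (6.67%), against 0.667% of all genes called in that fit. Without the block 0 of the 30 genes passed, and 0.0% of all genes did; at an unadjusted p under 0.05 the counts were 3 of the 30 without the block and 6 with it, against 9.15% and 13.4% of all genes. The 30 genes had a median log2 difference of −0.022 in the blocked fit, and all genes one of −0.0015.

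Soat1 stood at 23.02, 19.24, 15.43 and 17.29 CPM in BM LSK libraries 1 to 4 and at 45.37, 25.92, 24.31 and 24.73 CPM in CNS LSK libraries 1 to 4. In LK cells it stood at 16.84, 21.04, 16.43 and 16.71 CPM in BM and at 27.96, 30.73, 21.37 and 27.41 CPM in the CNS. Within either LPC type every CNS library was above every BM library, and the CNS library was the higher in 8 of 8 stems. The group means were 18.7 ± 3.25 and 30.1 ± 10.2 CPM in BM and CNS LSK, and 17.8 ± 2.19 and 26.9 ± 3.94 CPM in BM and CNS LK (SD, n = 4 each). CNS LSK library 1 was the highest of all, and its BM partner was the highest of the BM libraries.

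Over both LPC types the Soat1 difference was 0.62 ± 0.062 on the log2 scale with the stem block (edgeR, adjusted p = 5.53e-05) and 0.64 ± 0.12 without it (adjusted p = 0.215). The sizes were close and the SE was smaller with the block. It passed within LSK cells in the blocked fit (0.65 ± 0.088, edgeR adjusted p = 0.00270), where 0.138% of all genes did and 1 of the 30 did. It also passed within LK cells (0.60 ± 0.088, edgeR adjusted p = 0.00884), where 0.0636% of all genes did and again 1 of the 30 did. Without LK stem 1 or LK stem 2 the call within LK cells was lost (highest adjusted p 0.119 over the stems left out), and so it was without the libraries numbered 4 (adjusted p = 0.0510; 0.0318% of all genes called, and 0.185% in LSK, where Soat1 passed). With the receptor background as a covariate Soat1 passed in neither LPC type (adjusted p = 0.0796 in LSK and 0.0542 in LK; 0.0212% of all genes called in each). Without the block neither LPC type gave a call among all genes (0.0% in LSK and 0.0% in LK). The niche difference of LSK minus that of LK was 0.052 ± 0.12 (edgeR, blocked, adjusted p = 1.00), so a difference in response between LPC types was not detected.

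Other tools, and edgeR without a filter, gave the Soat1 call over both LPC types as well. It passed in DESeq2 (adjusted p = 0.00422, 0.212% of all genes called) and in edgeR without a filter on low counts (adjusted p = 3.60e-05, 0.159% called), both without the block. In that unfiltered fit the median of all genes was 0.15, with 59.5% above 0. It also passed in limma-voom with stems as a random block (adjusted p = 0.0312, 0.053% called). The Soat1 difference was 0.60 with the receptor background as a covariate in the blocked edgeR fit (adjusted p = 0.00607; 0.0953% called). Leaving out the libraries numbered 4 from the blocked fit left both Soat1 and Abcg1 called (0.635% of all genes). The unblocked edgeR fits with scaling by the median of ratios, or with named identifiers only, did not call Soat1, and 0 of all genes passed. Nor did any of the 16 unblocked fits without 1 library (edgeR, lowest adjusted p 0.118), where again 0 of all genes passed.

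Abcg1 stood at 28.33, 48.33, 27.57 and 30.79 CPM in BM LSK libraries 1 to 4 and at 38.51, 58.02, 47.55 and 37.00 CPM in CNS LSK. In LK cells it stood at 38.34, 41.04, 37.26 and 35.54 CPM in BM and at 67.88, 52.78, 68.61 and 38.45 CPM in the CNS. The BM and CNS groups overlapped in both LPC types, BM LSK library 2 being above 3 of the 4 CNS LSK libraries. Within stems the CNS library was the higher in 8 of 8, by 0.11 to 0.88 on the log2 scale.

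Over both LPC types the Abcg1 difference was 0.49 ± 0.075 with the block (edgeR, adjusted p = 0.00291) and 0.50 ± 0.13 without it (adjusted p = 0.312). The blocked value was 0.44 ± 0.11 in LSK (adjusted p = 0.157) and 0.55 ± 0.11 in LK (adjusted p = 0.0551), neither past the threshold. With the receptor background as a covariate the difference was 0.48 and no longer passed (adjusted p = 0.111), and neither did it pass in DESeq2 (adjusted p = 0.0664) or in limma-voom with stems as a random block (adjusted p = 0.0951).

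**Figure D2:**
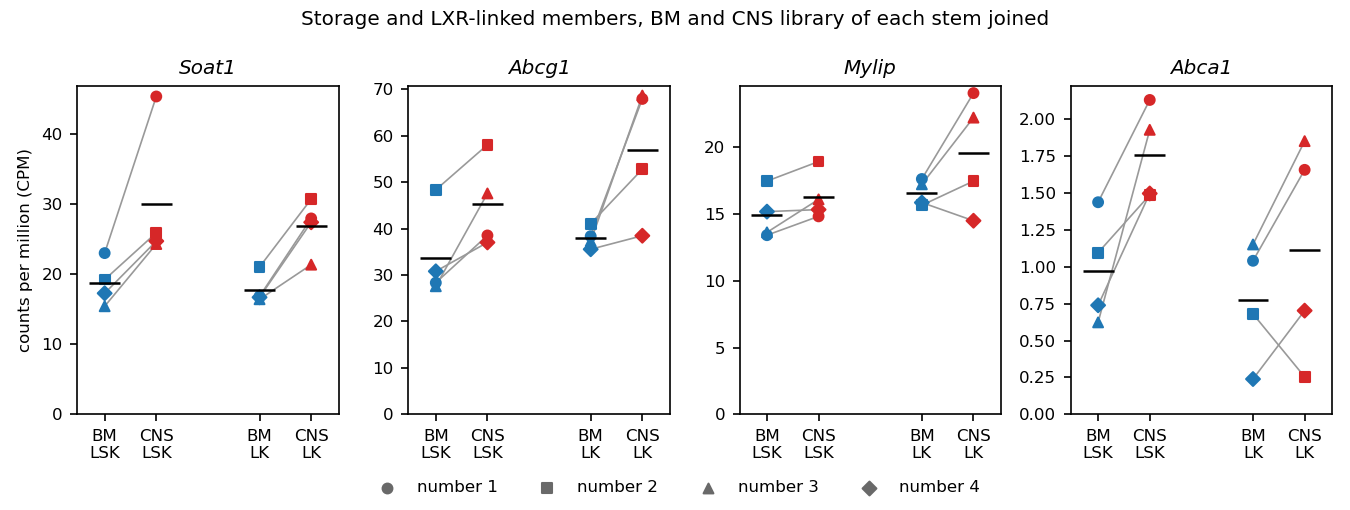
CPM of Soat1, Abcg1, Mylip and Abca1 in each library, with a grey line joining the BM (blue) and CNS (red) library of a stem, marker shapes for the stem numbers 1 to 4 and a black bar for each group mean of 4. All 8 lines rise for Soat1 and Abcg1, and 7 of 8 rise for Mylip and for Abca1.

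The other genes of the LXR group did not pass. Mylip stood at 13.40, 17.44, 13.61 and 15.16 CPM in BM LSK and at 14.80, 18.90, 16.07 and 15.31 CPM in CNS LSK libraries 1 to 4. In LK cells it stood at 17.60, 15.63, 17.20 and 15.83 CPM in BM and at 24.02, 17.44, 22.18 and 14.48 CPM in the CNS. The groups overlapped, and the CNS library was the higher in 7 of 8 stems, LK 4 being the exception. The Mylip difference was 0.17 ± 0.065 (edgeR, blocked, adjusted p = 0.261). The exporter Abca1, given in full after its values were seen, stood at 1.44, 1.09, 0.622 and 0.738 CPM in BM LSK and at 2.13, 1.48, 1.93 and 1.49 CPM in CNS LSK. In LK cells it stood at 1.04, 0.680, 1.15 and 0.239 CPM in BM and at 1.65, 0.254, 1.85 and 0.702 CPM in the CNS. The LSK groups did not overlap and the LK groups did. The Abca1 difference was 0.66 ± 0.26 (edgeR, blocked, adjusted p = 0.286) and was 0.041 with the receptor background as a covariate. Nr1h2 differed by −0.028 ± 0.052 (edgeR, blocked, adjusted p = 0.867).

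Among the remaining transport genes, Npc1 and Npc2, which together move cholesterol out of the lysosome, differed by 0.092 ± 0.053 and −0.063 ± 0.071, and Stard4, a carrier of cholesterol between membranes, by 0.038 ± 0.058. None of the 3 passed. In bulk RNA, more cells of another type and more RNA per cell cannot be told apart. The summed level of 10 microglia and brain macrophage markers was 5.01 to 6.65 CPM in BM LSK, 5.39 to 7.38 in CNS LSK, 4.47 to 5.20 in BM LK and 5.50 to 6.62 in CNS LK, and was higher in the CNS in 7 of 8 stems. Its defining members Tmem119, C1qa and C1qb did not exceed 0.427, 0.347 and 0.441 CPM and were each at 0 in 2 libraries. The summed level of 10 myeloid markers was 2.05 to 4.06 CPM in BM LSK, 2.67 to 5.99 in CNS LSK, 1.91 to 3.26 in BM LK and 1.90 to 6.79 in CNS LK, higher in the CNS in 6 of 8 stems. The sum of 11 neural, glial and meningeal markers was 33.6 to 46.7, 36.6 to 61.6, 38.7 to 42.7 and 42.5 to 46.8 CPM in the same order. It was higher in the CNS in 6 of 8 stems. Most of this sum was Mbp, which ran from 28.5 to 52.0 CPM in all libraries. The part of these cells in the Soat1 and Abcg1 differences was not tested.

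The synthesis enzymes had small differences of either sign. With the block, 7 of the 18 were higher and 11 lower in the CNS, 0 passed, and the median was −0.032, between −0.22 for Mvk and 0.20 for Fdps. At an unadjusted p under 0.05 there were 2 of the 18, Mvk and Nsdhl, against 13.4% of all genes. The 7 early enzymes had a median of −0.098 with 2 higher, the 3 steps from squalene to lanosterol one of 0.020 with 2 higher, and the 8 steps from lanosterol to cholesterol one of −0.038 with 3 higher.

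Mevalonate kinase, Mvk, had the smallest p of the enzymes. It stood at 9.09, 6.67, 8.45 and 6.60 CPM in BM LSK and at 6.69, 5.54, 6.72 and 6.39 CPM in CNS LSK libraries 1 to 4. In LK cells it stood at 6.38, 6.83, 8.33 and 6.26 CPM in BM and at 6.40, 5.42, 6.58 and 6.22 CPM in the CNS. The groups overlapped, and only in LK 1 was the CNS library the higher. The Mvk difference was −0.22 ± 0.082 (edgeR, blocked, adjusted p = 0.251). Pmvk, the next kinase, differed by −0.12 ± 0.099. Fdps, which makes farnesyl diphosphate, differed by 0.20 ± 0.20.

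Hmgcs1, whose start region holds the sterol element match shown above, stood at 26.7 ± 1.98 CPM in BM LSK, 27.9 ± 3.04 in CNS LSK, 27.5 ± 4.20 in BM LK and 26.8 ± 3.84 in CNS LK (SD, n = 4 each). Its difference was 0.015 ± 0.059, less than the spread between replicates.

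The squalene synthase gene Fdft1 differed by 0.036 ± 0.082, the epoxidase gene Sqle, a flux-controlling step, by 0.020 ± 0.087, and the lanosterol synthase gene Lss by −0.033 ± 0.074. Of the late steps, Nsdhl and Hsd17b7, which act in removal of the C4 methyl groups, differed by −0.22 ± 0.10 (edgeR, blocked, adjusted p = 0.369) and −0.11 ± 0.11, and Msmo1, which acts in the same steps, by 0.095 ± 0.10. The sensing genes were 0 of 4 higher in the CNS, with 0 passing and a median of −0.054. Srebf2 stood at 155 ± 9.91 CPM in BM LSK, 147 ± 16.04 in CNS LSK, 155 ± 10.5 in BM LK and 143 ± 5.15 in CNS LK (SD, n = 4 each). It differed by −0.092 ± 0.046 (edgeR, blocked, adjusted p = 0.399), and Insig2 by −0.097 ± 0.096. Scap, the escort, differed by −0.015 ± 0.051. Differences of these sizes lay within 3 SE, and the test did not separate them from 0.

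**Figure D3:**
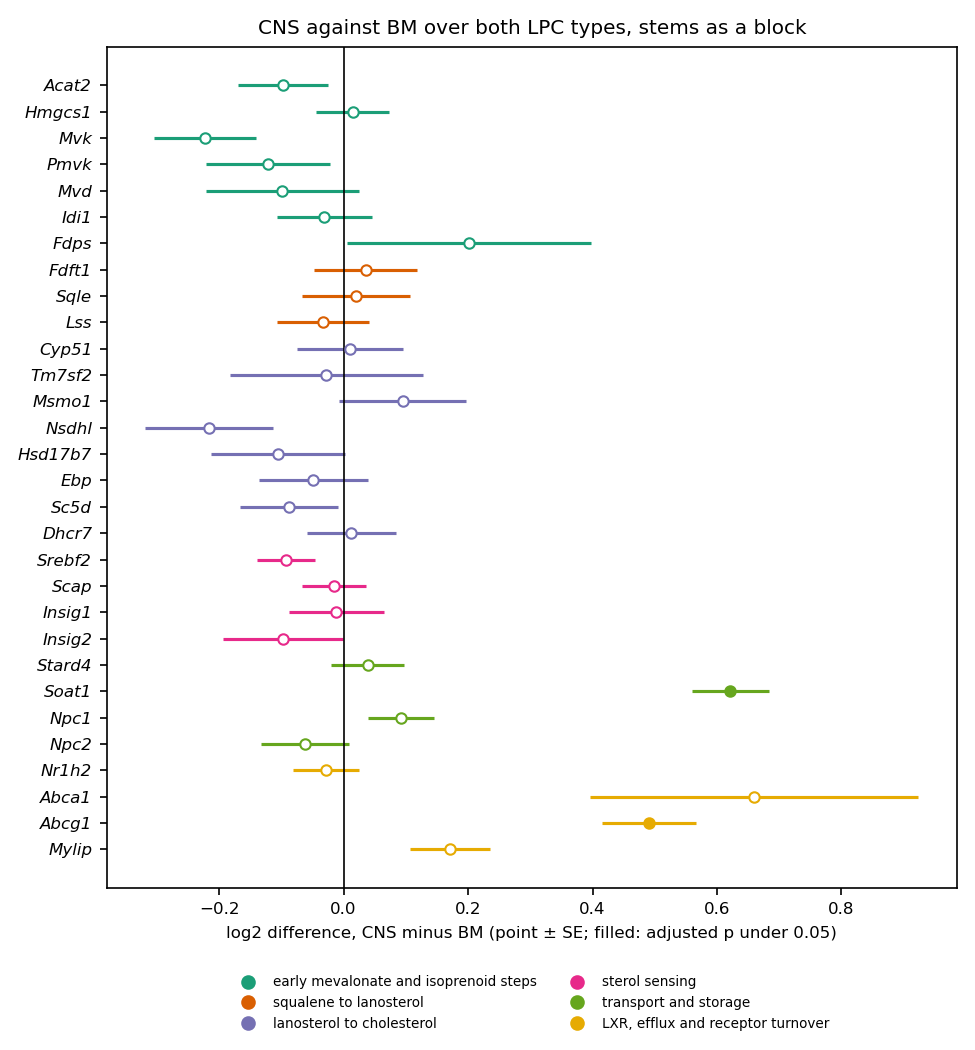
Log2 difference CNS minus BM (x axis) of the 30 genes (y axis, coloured by role) over both LPC types with stems as a block, as point ± SE; filled points passed an adjusted p of 0.05. Soat1 (0.62) and Abcg1 (0.49) are the 2 filled points, and the enzymes lie between −0.22 and 0.20.

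The stems differed in the sign of the synthesis enzymes and not in that of Soat1 or Abcg1. In LSK stems 1 to 4, the number of the 18 enzymes higher in the CNS library was 4, 8, 10 and 13, and the median log2 difference −0.21, −0.027, 0.015 and 0.18. In LK stems 1 to 4 the number was 6, 4, 1 and 13 and the median −0.099, −0.17, −0.33 and 0.17. Both stems numbered 4 thus had 13 of 18 enzymes higher in the CNS, and LK 3 had 1. The Soat1 difference lay between 0.38 and 0.98 in all 8 stems. Abcg1 had its smallest difference (0.11) and Mylip its only negative one (−0.13) in LK 4, while LK 3 and LK 1 had the largest for Abcg1 (0.88 and 0.82). Without the libraries numbered 4, which were left out after their values were seen, the blocked median of the 30 genes was −0.073 with 8 of 30 higher in the CNS. Of the 30, 26.7% then had an unadjusted p under 0.05 against 11.6% of all genes. Leaving out the stems with most enzymes higher in the CNS lowers the median by itself, so no conclusion is drawn from these values. Without LK 3 the median was 0.0088 with 16 of 30 higher in the CNS, so the sign of the median turned with the stem left out.

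**Figure D4:**
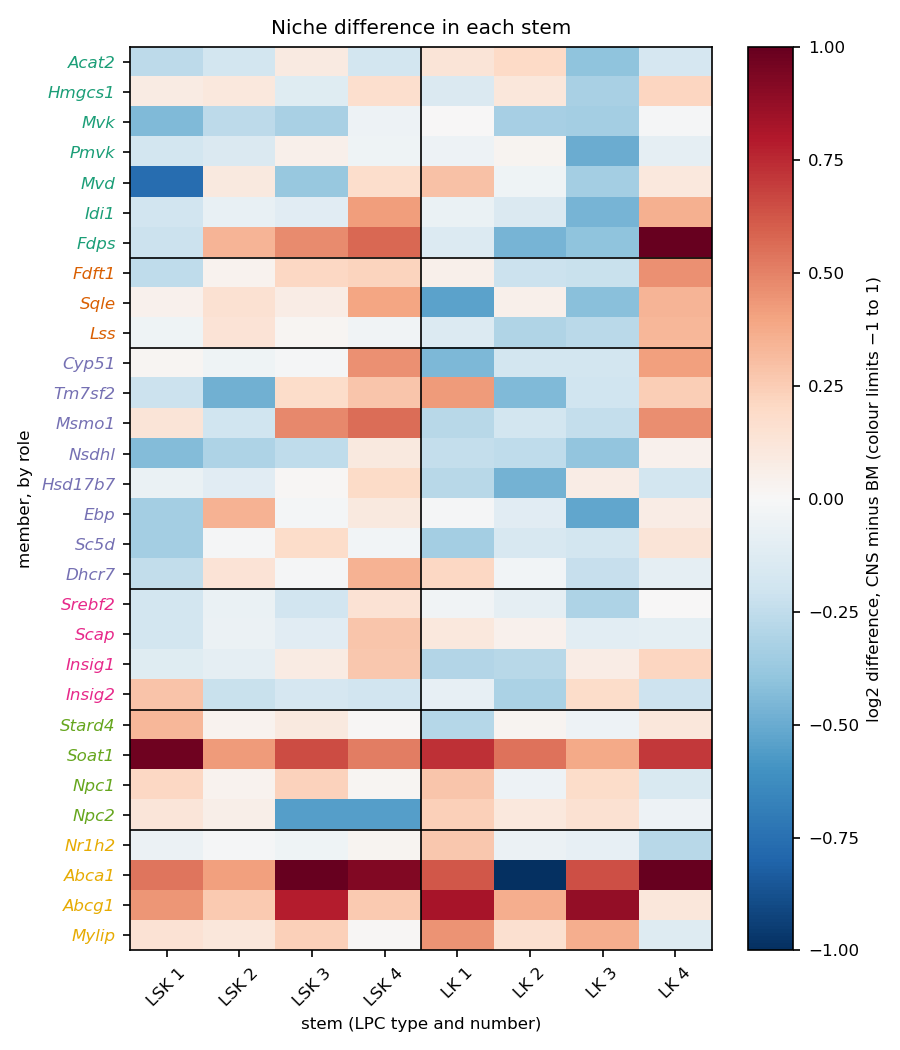
Log2 difference CNS minus BM of each gene (rows, grouped by role) in each of the 8 stems (columns), red for higher in the CNS, with colour limits at −1 and 1. The rows of Soat1 and Abcg1 are red in all 8 columns, and the enzyme rows are mostly red in LSK 4 and LK 4 and mostly blue in LK 3.

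The niche difference was next compared between LPC types. In the blocked fit 11 of the 18 enzymes were higher in the CNS in LSK cells (median 0.018) and 4 of 18 in LK cells (median −0.082). Of all genes 51.1% were higher in LSK cells and 50.7% in LK cells. The interaction, the niche difference in LSK minus that in LK, was above 0 in 13 of the 18 enzymes, with a median of 0.090, and in 21 of the 30 genes, with a median of 0.069. Of all genes 49.4% were above 0, with a median of −0.0021. The median of the 30 genes rested on 1 stem: without LK 3 it was 0.0014, with 15 of 30 above 0, and without LSK 4 it was 0.047, with 18 of 30. None of the 30 passed (edgeR, adjusted p = 1.00), and 0.0% of all genes did, with or without the block. The same interaction at an unadjusted p under 0.05 held 1 of the 30 genes, Npc2 (−0.34 ± 0.14), against 3.12% of all genes. Npc2 stood at 21.0, 25.6, 31.5 and 31.4 CPM in BM LSK and at 22.8, 26.6, 21.5 and 21.4 CPM in CNS LSK libraries 1 to 4. In LK cells it stood at 26.4, 24.0, 25.6 and 29.6 CPM in BM and at 31.2, 25.8, 28.4 and 28.7 CPM in the CNS. The LSK groups overlapped, as did the LK groups. The largest positive interactions among the enzymes were those of Sqle (0.29 ± 0.17) and Msmo1 (0.29 ± 0.20).

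The second question is whether LSK cells differ from LK cells. Over both niches none of the 30 genes passed, against 0.238% of all genes in the unblocked fit and 0.344% with the title number as a block. Those fits count the BM and CNS library of a stem as independent. With counts summed per stem 0.0% of all genes passed, and with stems as a random block in limma-voom 0.0583%, again with 0 of the 30 genes. At an unadjusted p under 0.05 there were 3 of the 30 genes against 12.1% of all genes. The 30 genes had a median log2 difference, LSK minus LK, of −0.011 and all genes one of −0.011. The enzymes were higher in LSK in 10 of 18, with a median of 0.0040. Within BM and within CNS libraries 0 of the 30 genes passed (0.0% and 0.0% of all genes).

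The sterol desaturase gene Sc5d, of a late step, had the smallest p. It stood at 7.66, 6.81, 7.29 and 8.90 CPM in BM LSK and at 10.14, 8.84, 10.54 and 9.37 CPM in BM LK libraries 1 to 4. In the CNS it stood at 6.03, 6.74, 8.28 and 8.74 CPM in LSK and at 8.01, 7.91, 9.29 and 10.26 CPM in LK. The LSK and LK groups overlapped in both niches. The Sc5d difference was −0.30 ± 0.094 (edgeR, adjusted p = 0.201). Npc1 stood at 23.28, 32.20, 25.66 and 27.32 CPM in BM LSK and at 29.28, 32.41, 30.85 and 33.10 CPM in BM LK. In the CNS it stood at 26.87, 32.98, 30.09 and 27.72 CPM in LSK and at 35.44, 31.36, 35.04 and 29.85 CPM in LK, and the groups overlapped. The Npc1 difference was −0.19 ± 0.067 (edgeR, adjusted p = 0.278).

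Mylip and Abcg1, whose values by library are given above, differed by −0.20 ± 0.095 (edgeR, adjusted p = 0.400) and −0.25 ± 0.13 (edgeR, adjusted p = 0.467) between LSK and LK cells. Soat1 differed by 0.12 ± 0.12 and Npc2 by −0.12 ± 0.081. Abca1 had the widest difference and the widest error, 0.50 ± 0.34. Of the early enzymes, Mvd differed by −0.23 ± 0.15 and Idi1 by 0.12 ± 0.089. Sqle differed by 0.15 ± 0.10 and Dhcr7, the last reductase of one route to cholesterol, by 0.10 ± 0.080. Of the 4 sensing genes 1 was higher in LSK and 3 lower. Insig2 differed by −0.20 ± 0.11 and Insig1 by −0.11 ± 0.11.

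**Figure D5:**
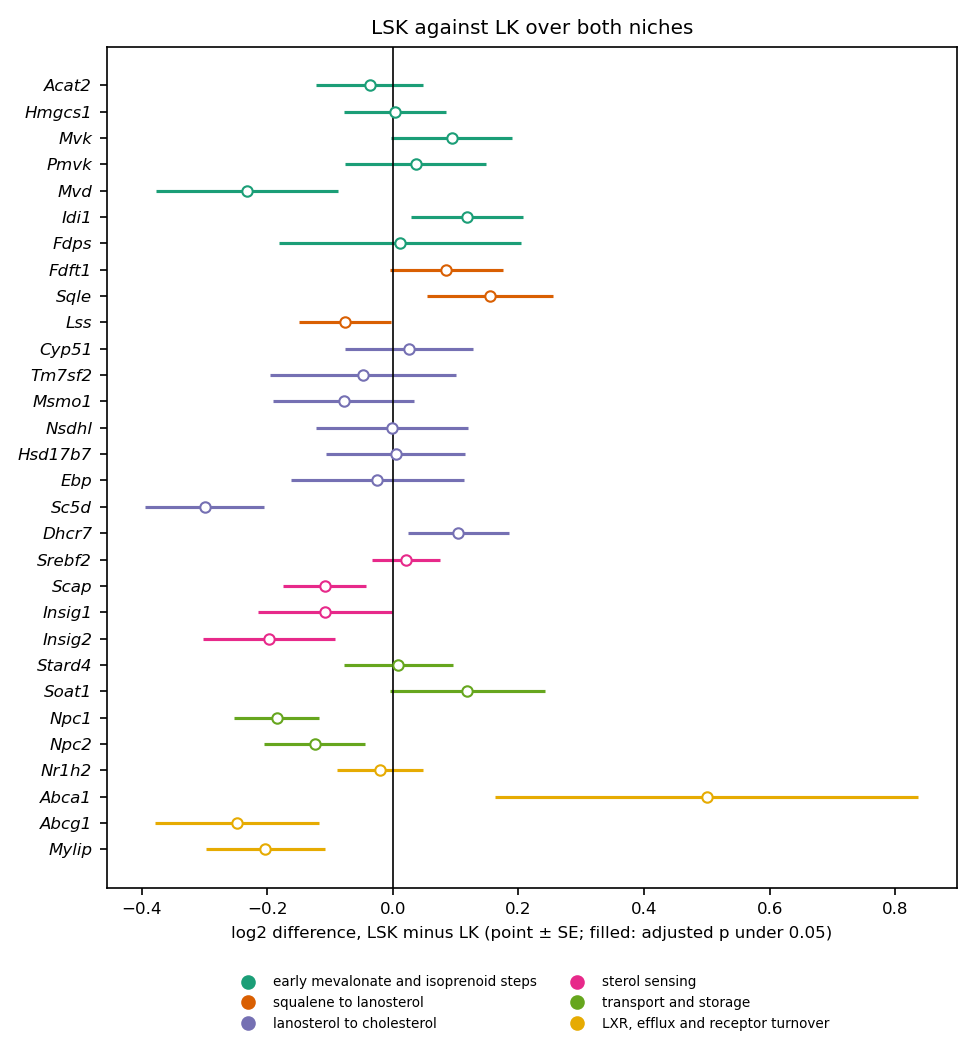
Log2 difference LSK minus LK (x axis) of the 30 genes (y axis, coloured by role) over both niches, unblocked, as point ± SE. All points are open, none having passed an adjusted p of 0.05; Sc5d (−0.30) and Abca1 (0.50) are the extremes.

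A further 52 sterol genes, covering the isoprenoid branch, sterol regulation in the endoplasmic reticulum, electron donors, sterol transfer proteins, and uptake, ester turnover and oxysterol genes, were counted beside the 30. Of these 48 could be tested. None passed in the niche comparison over both LPC types, blocked or not, nor in the LPC type comparison. In the blocked niche fit 12 of the 48 had an unadjusted p under 0.05, against 13.4% of all genes. In the same fit 20 of the 48 were higher in the CNS, against 49.4% of all genes, with a median of −0.027. The smallest p was that of Vldlr, a lipoprotein receptor (1.36 ± 0.38, edgeR adjusted p = 0.122), which ran from 0.0798 to 1.13 CPM over the libraries and averaged 10.6 counts. Stard5, of the same carrier family as Stard4, differed by 0.27 ± 0.078 (edgeR, adjusted p = 0.149), and the sterol transfer gene Osbp by −0.11 ± 0.039 (edgeR, adjusted p = 0.221). Between LSK and LK cells the smallest p were those of Vldlr (1.21 ± 0.36), Rxra, a partner receptor of LXR (0.87 ± 0.29), and Mbtps1, a protease that cuts SREBP (−0.12 ± 0.046). These 3 had adjusted p of 0.188, 0.237 and 0.296 in edgeR. Rxra averaged 0.610 CPM over the libraries, and Rxrb, of the same list, 29.7 CPM.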

How the data were processed

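The authors deposited whole-number counts per gene for 16 libraries, made with a stranded total RNA kit per the labels' protocols. The submitters' processing notes name GRCm39 and DESeq2; aligner, counter, and any use of strand or molecular identifiers are not given in the sources used here. Although the table is named as normalised, totals differ between libraries and size factors run from 0.804 to 1.302. The values were therefore treated as raw counts and tested in edgeR. Identifiers with no symbol (3333) held 41.8% of counts and stayed in the library sizes.

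Genes with a mean of at least 10 counts (18878) were fitted with TMM scaling as 4 group means without a block, in edgeR 4.0.16 (R 4.3.3), two-sided, adjusted p under 0.05; the scripts were tested on simulated data. Alternatives used stems or title numbers as a block, DESeq2 1.42.0, limma 3.58.1, other filters and scalings, and libraries left out. Stems come from the sample descriptions. Deviating together means a correlation over 0.1. Over genes with a mean of at least 10 counts, same-stem libraries did so in 8 of 8 stems at an offset of 0.5 CPM. At 0.1 CPM they did in 6 of 8, and title numbers did in 4 of 8 at either offset. With a mean of at least 50 counts, stems did in 8 of 8 and title numbers in 6 of 8, at either offset. Stem differences are of log2(CPM + 0.1). Counts are not known to be independent molecules, and near-identical or overlapping genes may share reads.

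The 30 genes, their role groups and the other lists were chosen with earlier results of these data known. Values in every library are given for the 4 genes with the smallest p in the blocked niche fit, the 4 in the LPC type fit, and any gene called; others are named by the largest differences, up to 3 per role group. Abca1 and Npc2 were given in full after their values were seen.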

Additional observations from a re-analysis of the deposited data

Results flagged for a closer look

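Each group of 4 libraries was examined for 1 library set apart from the other 3, in 120 combinations of gene and group. Chance sets apart about 1 in 20 such groups, 6 here, and 9 were found. Soat1 stood at 45.4 CPM in CNS LSK 1, with the other 3 libraries between 24.3 and 25.9, and at 21.0 CPM in BM LK 2, with the others between 16.4 and 16.8. Without stem LSK 1 the blocked Soat1 difference over both LPC types was 0.56. Abcg1 stood at 48.3 CPM in BM LSK 2, above the 27.6 to 30.8 of the others. CNS LK 4 was set apart for 2 enzymes, Idi1 at 34.6 CPM and Cyp51, the lanosterol demethylase, at 15.6 CPM. Sqle stood at 14.5 CPM in BM LSK 1, Ebp, the sterol isomerase, at 10.3 CPM in BM LSK 4, and Srebf2 at 170 CPM in BM LK 3, each the highest of its group. Tm7sf2, a sterol reductase, stood at 1.95 CPM in CNS LK 2, the lowest of its group.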

How the results depend on the processing

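In edgeR's unblocked fit, 0 of the 30 genes passed in any of the 7 comparisons. With the stem as a replicate block, 2 passed over both LPC types (Soat1, Abcg1), 1 in LSK and 1 in LK (Soat1). Over both LPC types 2 passed without a filter on counts, 1 in DESeq2 and 1 in limma-voom with a random block. In LSK 1 passed without a filter, where 10 of all 53366 genes did. Alternatives chosen after seeing the data were the blocked fit with the receptor background, which left 1 over both LPC types and 0 in either, the blocked fit without the libraries numbered 4, with 2, 2 and 1 (Abcg1 in LK), and the blocked fit without each stem. Leaving out 1 library or 1 stem gave 0 to 2 genes over both LPC types, 0 to 1 in LSK and 0 to 2 in LK. Each call among these came with the block. The blocked fits without 1 stem tested 18396 to 19064 genes. Of all these they called 78 to 147 over both LPC types, 9 to 37 in LSK and 2 to 19 in LK. In the same comparisons the unblocked fits without 1 library called 0 of all genes. The title-number block, other scalings and the LPC type fits gave 0, and none of the 10 gene differences followed across all settings changed sign. Without a filter, the median of all genes moved to 0.15 over both LPC types, 0.12 in LSK, 0.14 for LPC type over both niches and 0.11 in the CNS. Over both LPC types 7 of 30 genes were then above 0 in place of 14. Low counts limit Abca1, Vldlr and Rxra.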
